A study of Mus musculus with 9 samples.

Results

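Of 124230 regions of open chromatin in 3 mouse osteosarcoma cell lines, 3402 were open only in the line without p53, or 2.74%. They are called null-only regions here. Each had a peak in 3 of 3 libraries of the p53-/- line and in none of the 6 libraries of the mutant lines, after the 9 deposited peak lists were merged wherever peaks overlapped by 1 bp or more. They made up 6.05% of the 56277 regions called in all 3 null libraries. The calls themselves chose the regions, so their presence in the null line is a description and carries no test.

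Osteosarcoma is a bone tumour of mesenchymal origin, and the lines were derived from primary tumours of mice. The null line had the genotype p53-/-. The R172H line was p53R172H/- and the R245W line p53R245W/-, so each mutant line carried a missense allele over a null allele and no line had a wild-type copy. Every genotype was a single line with 3 ATAC-seq libraries, so genotype and line cannot be told apart, and nothing in the labels tells separate cultures from repeat libraries. The series title asks how different p53 mutants drive distinct programmes in these tumours.

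ATAC-seq uses the transposase Tn5 to cut DNA that nucleosomes leave accessible, and a peak marks a promoter, an enhancer or another regulatory element that is open in many of the cells. p53 is a transcription factor that binds DNA as a tetramer and activates genes of growth arrest, DNA repair and cell death. Its missense mutants lose much of that binding but remain as proteins in the nucleus, while a null line has none. Elements open in only 1 line are most often distal enhancers, which vary between cells of different origin and state far more than promoters do.

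The null libraries had 65199, 65942 and 65772 peaks, against 72840, 74352 and 72907 in the R172H libraries and 76868, 79424 and 75314 in the R245W libraries. Read depth is unknown, but the pile-up of reads or fragments at each summit could be solved from the deposited fold and p-value. The most frequent background pile-up, which tracks depth, stood at 5.02, 5.8 and 5.4 in the null libraries, 4.77, 5.36 and 4.81 in the R172H libraries, and 5.65, 6.39 and 6.14 in the R245W libraries. The null libraries were thus not the deepest. At Trp53, which encodes p53, the promoter region at chr11:69578799-69581968 was called in all 9 libraries. Peak lists hold no reads over the coding exons, so they cannot check the deletion. A null-only region lay 138 bp beyond the other end of Trp53, at chr11:69592011-69592707, with pile-ups of 21, 26 and 29 in the 3 null libraries. Of the bone markers, Runx2, the master regulator of osteoblasts, had 5 regions open in all 9 libraries within 50 kb of its ends, and the matrix protein genes Sparc and Spp1 had 6 each.

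Only 33 null-only regions overlapped a protein-coding promoter window, defined as 250 bases before to 50 after a RefSeq start site on GRCm38.p6. The sequences of 5 windows follow as examples, and they were not chosen to stand for all 33. They are the most strongly open one, that of Ccdc89, those of Rhox5 and Tcf12, and both promoters of Pdzrn4, a gene with 7 null-only regions within 50 kb of its ends. All read 5′ to 3′ along the gene, the start site follows base 250, and capitals mark the CG dinucleotides, which are dense in promoters of widely used genes. Ccdc89 is at chr7:90426062-90426361 on the plus strand, Rhox5 at chrX:37754358-37754657 on the plus strand and Tcf12 at chr9:71896047-71896346 on the minus strand. The Pdzrn4 windows are at chr15:92396560-92396859 and chr15:92596859-92597158, both on the plus strand.
Ccdc89 promoter: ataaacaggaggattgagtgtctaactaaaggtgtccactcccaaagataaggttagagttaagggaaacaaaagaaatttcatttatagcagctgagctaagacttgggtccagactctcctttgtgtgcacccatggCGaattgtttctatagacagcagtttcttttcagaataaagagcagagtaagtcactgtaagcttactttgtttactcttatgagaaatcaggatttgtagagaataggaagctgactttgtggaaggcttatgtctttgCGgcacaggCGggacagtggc
Rhox5 promoter: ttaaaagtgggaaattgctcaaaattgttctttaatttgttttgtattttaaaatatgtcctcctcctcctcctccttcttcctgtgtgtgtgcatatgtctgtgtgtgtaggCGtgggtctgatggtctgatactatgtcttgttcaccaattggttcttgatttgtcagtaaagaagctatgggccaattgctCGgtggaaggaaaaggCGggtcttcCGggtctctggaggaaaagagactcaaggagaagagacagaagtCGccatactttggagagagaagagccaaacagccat
Tcf12 promoter: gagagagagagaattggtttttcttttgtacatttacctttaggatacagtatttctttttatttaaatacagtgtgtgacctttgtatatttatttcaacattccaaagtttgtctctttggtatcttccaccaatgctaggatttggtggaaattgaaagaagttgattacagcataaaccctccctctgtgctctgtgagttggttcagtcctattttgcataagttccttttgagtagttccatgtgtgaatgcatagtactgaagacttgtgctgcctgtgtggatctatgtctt
Pdzrn4 first promoter: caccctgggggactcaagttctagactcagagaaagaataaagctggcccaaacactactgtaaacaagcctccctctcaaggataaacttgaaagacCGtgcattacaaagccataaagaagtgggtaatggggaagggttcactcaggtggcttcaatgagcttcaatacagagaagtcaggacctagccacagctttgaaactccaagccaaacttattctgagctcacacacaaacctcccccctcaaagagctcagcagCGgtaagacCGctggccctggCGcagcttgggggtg
Pdzrn4 second promoter: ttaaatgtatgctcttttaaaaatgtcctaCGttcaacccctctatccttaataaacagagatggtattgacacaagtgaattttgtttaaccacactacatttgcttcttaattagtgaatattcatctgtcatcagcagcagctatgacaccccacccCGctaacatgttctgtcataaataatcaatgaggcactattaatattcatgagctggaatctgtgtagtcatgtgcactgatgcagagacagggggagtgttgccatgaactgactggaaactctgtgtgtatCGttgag
The windows of Ccdc89, Rhox5, Tcf12 and Pdzrn4 held 3, 5, 0 and, for its first and second start, 4 and 3 CG dinucleotides. The 33 windows had a median of 7, above all 5 printed here, and 12 of them (36.4%) had 10 or more. The window of Rec114, which is not printed here, held 12. Of 11354 promoter windows in regions open in all 9 libraries the median was 22 and 89.2% had 10 or more, and of all 21262 windows the median was 13 and 56.7% had 10 or more. The R172H-only and R245W-only promoters, 181 and 217 in number, had medians of 8 and 10. The null-only windows thus had the lowest median of these sets, with those of the mutant-only regions next to it. Among the exceptions, the window of Chrna7, which encodes a nicotinic acetylcholine receptor subunit, held 35, that of Alkal2, a ligand of the receptor kinase ALK, 30, and that of Sox30, a testis transcription factor, 28.

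Ccdc89, a coiled-coil protein gene, had no other region assigned to it, and its promoter region had pile-ups of 202, 196 and 212 in the null libraries. Rhox5, a reproductive homeobox gene on the X chromosome, had 66, 61 and 66. The Tcf12 window had 63, 79 and 84. Tcf12 encodes an E protein, a basic helix-loop-helix factor, and another of its promoters lay in a region open in all 9 libraries. That was so for 9 of the 32 genes, among them Rtkn, Adam19, Prickle2 and Kcnab2, so at these genes an alternative start site was open in the null line beside a shared one. Rec114, a gene of meiotic recombination, had pile-ups of 79, 101 and 106 at its only listed promoter. Dpt and Prelp, which encode the matrix proteins dermatopontin and prolargin, had 55, 63 and 57, and 27, 28 and 25.

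17 short motifs were searched on both strands of the 33 windows, by fixed letters. A match is a description, not a bound site. The E-box CAGCTG was in 8 windows (24.2%, against 15.6% of all promoters), the SP and KLF motif GGGCGGG in 9 (27.3% against 33.9%), the SOX motif ACAAAGG in 5 (15.2% against 5.39%), the RUNX motif TGTGGTT in 4 (12.1% against 4.71%) and the homeobox motif TAATTA in 4 (12.1% against 4.53%). The ETS motif CCGGAAG (11.6% of all promoters) and the FOX motif TGTTTAC (3.01%) were in 2 windows each, or 6.06%. The AP-1 motif TGACTCA (4.66% of all promoters), the TEAD motif GGAATGT (3.38%), the GATA motif AGATAAG (2.64%) and the EBF motif CCCNNGGGA (7.26%) were in 1 each, or 3.03%. No window held the CREB motif TGACGTCA (2.23% of all promoters), the CEBP motif TTGCGCAA (0.221%) or the longer motifs of NFI (0.0329%), NF-kB (1.44%), MEF2 (0.372%) and CTCF (0.0282%). The EBF and NF-kB motifs share the letters GGGA, and with 33 windows a count of 4 or 5 is small.

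The null-only regions ran from the weakest peaks that the caller accepted to strong ones. Their pile-ups had medians of 39, 44 and 42 in null replicates 1, 2 and 3, with ranges of 14 to 396, 15 to 462 and 14 to 396. By strength within each library's own list, the median region stood at percentiles of 28.5, 29.1 and 29.2 of −log10 q. Taking for each region its weakest null library, 708 (20.8%) fell below a percentile of 10 and 480 (14.1%) stood above 50. The lowest pile-up called anywhere in a mutant library was 13 to 15. Of the null-only regions, 2166 (63.7%) had a pile-up of 30 or more in every null library, 1301 (38.2%) had 45 or more, 612 (18%) had 75 or more and 120 (3.53%) had 150 or more. A higher local background raises the pile-up needed for a call, and the lists give no background where nothing was called. Regions with 45 or more that also stood on the ordinary background of all 3 null libraries numbered 134.

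**Figure D1:**
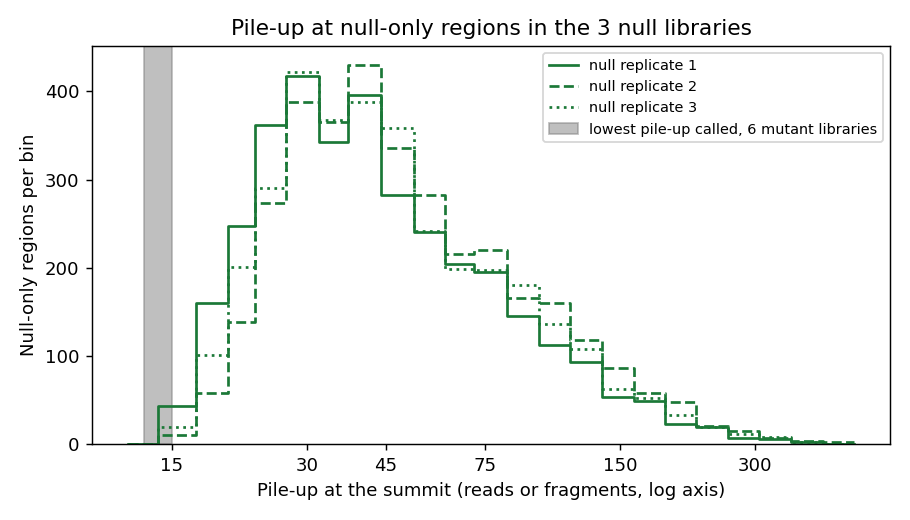
Pile-up at the summit (x, reads or fragments, log axis) of the 3402 null-only regions in the 3 null libraries, as the number of regions per bin (y). The grey band marks 13 to 15, the lowest pile-ups called in the 6 mutant libraries. The medians of 39, 44 and 42 lie well to the right of the band.

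With no call in a mutant library, 3402 regions were called in 3 null libraries, 1665 in 2 and 4052 in 1. At the 3402, the highest of the 3 pile-ups was a median of 1.26 times the lowest, against 1.17 times at regions open in all 9 libraries. The percentiles of the 3402 regions in pairs of null libraries had Spearman correlations of 0.876 to 0.882, given as a description because the regions were chosen in all 3. The summits lay within 100 bp of each other in 2630 regions (77.3%), and 3381 (99.4%) had exactly 1 peak in each null library.

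Each library was also kept out of the choice in turn. The 2 other libraries of its line still had to have the call, or to lack it, so the choice largely sets the share in the third. Regions chosen with the other 2 null libraries were called in the null library kept out in 84.5%, 87.3% and 86.2% of cases, or 86% ± 1.41 (SD, n = 3). The regions called were the same 3402 each time, out of 4027, 3896 and 3948 chosen. These shares thus differ only in the number chosen, and their SD is not a spread of 3 independent results. Regions chosen without an R172H library were called in it in 2.21%, 2.94% and 2.77% of cases, or 2.64% ± 0.382 (SD, n = 3). For the R245W libraries the shares were 6.64%, 10% and 5.32%, or 7.32% ± 2.41 (SD, n = 3). Among all regions that the other 2 null libraries called, whatever the mutant libraries did, the null library kept out called 95.5%, 96.5% and 96%, so its shares at the chosen regions were lower than these. Among all regions called in 3 null libraries, the R172H libraries called 73%, 73.6% and 72.9%, and the R245W libraries 87.9%, 88.8% and 87.5%. R245W replicate 2, which had the most peaks of all, had the highest share among the mutant libraries in both.

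Just outside the rule, 1665 regions were called in 2 of 3 null libraries and no mutant library, with a median pile-up of 24.5 in the null libraries that called them. Another 1088 were called in all 3 null libraries and 1 mutant library, with a median of 39 in the null libraries, against 41 for the null-only regions. In the mutant library that called them they stood at a median percentile of 9.36. R245W replicate 2 accounted for 378 of the 1088 and R245W replicates 1 and 3 for 242 and 191, against 77, 103 and 97 for the 3 R172H libraries. Those calls in a mutant library were weak ones, and most came from the R245W line. They are the same calls as those behind the shares of the mutant libraries kept out above, not a further result.

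The null-only regions lay away from gene ends. Only 121 (3.56%, exact 95% interval 2.96 to 4.24) were within 1000 bp of either end of a protein-coding gene. The same share was 4.22% of 12214 R172H-only regions, 6.68% of 7188 R245W-only regions, 32% of 36473 regions open in all 9 libraries and 13.9% of all merged regions. The intervals cover counting error only. Inside a gene span lay 1856 (54.6%), against 48.7% of R172H-only, 47.5% of R245W-only and 66.1% of regions open in all 9. The gene table has no exons, so exon and intron are not told apart. The regions were narrow, as were those open in a mutant line alone. Their median was 583 bp, against 614 bp for R245W-only, 701 bp for R172H-only and 1190 bp for regions open in all 9 libraries. The single peaks in them had medians of 474, 490, 574 and 913 bp, in the same order. A mutant peak was near most of them without touching: 495 (14.6%) had one within 1000 bp, 2591 (76.2%) had one within 10000 bp, and the median distance was 3880 bp. The same shares for other regions are not given here, so this nearness is not shown to be particular to null-only regions.

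**Figure D2:**
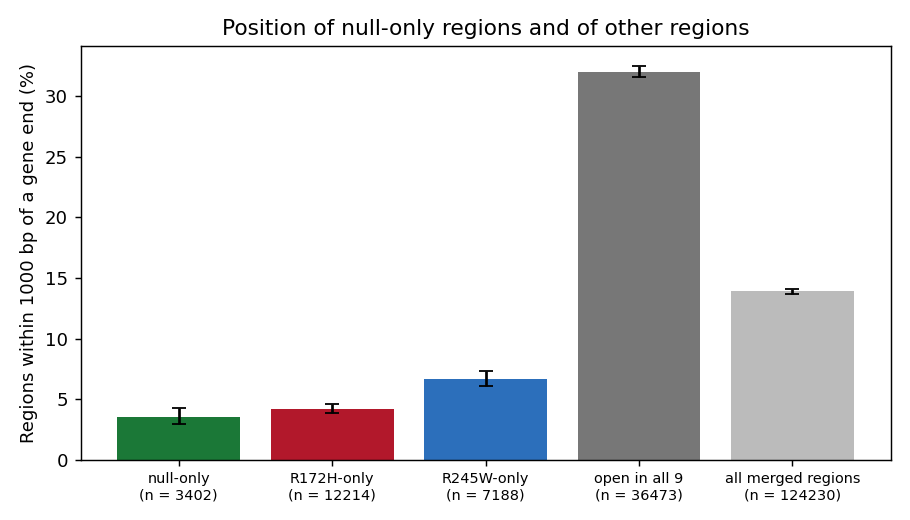
Share of regions within 1000 bp of a protein-coding gene end (y, %) for null-only regions, the regions open in a mutant line alone, regions open in all 9 libraries and all merged regions. Bars start at 0 and lines are exact 95% binomial intervals. The null-only bar, at 3.56%, is the lowest and its interval overlaps that of the R172H-only regions.

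When regions were given to whichever protein-coding gene ended closest, up to 50 kb away, 2183 null-only regions fell to 1801 of the 17562 genes that had any region, or 10.3%. They were 4.95% of the 44061 regions so assigned that all 3 null libraries called. Most genes, 1510, had a single one, and 62 had 3 or more. The counts per gene that follow hold for this 50 kb limit, and many change with it. Of the 1801 genes, 1598 also had a region open in all 9 libraries, but the same share over all genes is not given here. A region open only in R172H or only in R245W lay at 953 (52.9%), against 39.3% of all genes with a region. Genes with many regions have more chances of both, and this was not adjusted for.

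A dense group lay on chromosome 15 over Cntn1 and Pdzrn4. Cntn1 encodes contactin 1, a neuronal cell adhesion protein of the immunoglobulin family, and Pdzrn4 a protein with PDZ and RING finger domains. Between 92 and 93 Mb, 24 of 27 regions called in all 3 null libraries were null-only (88.9%). The null libraries called 29, 32 and 29 regions there, against 3, 3 and 3 in the R172H libraries and 1, 3 and 4 in the R245W libraries. The 3 longest runs of neighbouring null-only regions with no other region between them followed each other here, with 6 over 86815 bp in and just beyond Cntn1, 7 over 98790 bp at the start of Pdzrn4 and 8 over 98223 bp further inside it.

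The strongest null-only region of all was in this group, inside the span of Cntn1 at chr15:92268286-92269319. Its pile-ups were 372, 440 and 391, above 93.9% of the peaks in every null list, and the nearest mutant peak was 2550 bp away. At Pdzrn4 (chr15:92396810-92771827), the first promoter region had pile-ups of 122, 92 and 113. A region 1297 bp inside that gene end had 227, 214 and 223, and the second promoter had 30, 38 and 28. Of the 9 regions assigned to Pdzrn4, 7 were null-only, and the nearest mutant peak to the first promoter lay 131001 bp away. Counted by the nearest gene span in place of the nearest end, Pdzrn4 had 17. The block held 1 region open in all 9 libraries, too few to show how the general signal there compared between the lines.

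Vipr2 and St8sia2 had 6 null-only regions each. Vipr2 (chr12:116077420-116148637) encodes a receptor for vasoactive intestinal peptide. Its strongest null-only region, at chr12:116103552-116104279, had pile-ups of 73, 88 and 82, and the others had 17 to 54. St8sia2 (chr7:73939119-74013727) encodes the enzyme that builds polysialic acid chains on the neural cell adhesion molecule. One of its regions, at chr7:74012753-74013658, reached into its promoter window and had pile-ups of 34, 32 and 40, and its strongest had 47, 52 and 47. Within 500 kb of these regions, signal at regions open in all 9 libraries was also higher in the null line, by log2 differences of 0.46 to 0.47 at Vipr2 and 1.7 to 1.77 at St8sia2. In the 1 Mb from 116 Mb on chromosome 12, which holds Vipr2, it was 0.156 against R172H and 0.821 against R245W. In those from 73 and 74 Mb on chromosome 7 it was 1.503 and 1.991 against R172H, and 2.064 and 1.518 against R245W. The part of these differences in the calls was not tested.

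Clmp, an adhesion protein of epithelial junctions, had 5, the strongest with pile-ups of 62, 77 and 60. Mctp2, a membrane protein with calcium-binding C2 domains, also had 5, and its strongest had 171, 203 and 193, with a local log2 difference of 2.33. Another 15 genes had 4, and the naming rule gave those with the strongest regions, Rhou, Plpp3, Septin9, Chst11, Nek7 and Rasa3, beside Cntn1. Rhou encodes an atypical small GTPase, and its strongest null-only region had pile-ups of 197, 242 and 212 although the local log2 difference there was −0.52. Rasa3, a brake on Ras, had 93, 104 and 85 at its strongest by percentile, with a local difference of −0.41. Its highest pile-ups, 130, 158 and 142, stood on a background 11.8 times the usual one, and that region reached a percentile of 24.7. At Septin9, a cytoskeletal GTP-binding protein, the highest had 218, 284 and 237 with −0.06. Nek7, a protein kinase, had 110, 108 and 97 with −0.02, and Chst11, which sulfates chondroitin chains of the matrix, had 150, 148 and 156 with 0.15. Plpp3, a lipid phosphatase, had 134, 169 and 150 with 0.52. Genes with several null-only regions thus lay where the general signal of the null line was higher, level or lower.

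The strongest null-only regions with a gene end within 50 kb were at Enox1, Ctbp1, Hhat, Slc14a1, Capn2, Gja5, Chd2, Ccdc89, Ciapin1 and Gfod1. The Enox1 region, at chr14:77700414-77701174 inside the gene, had pile-ups of 255, 286 and 266. Beside Ctbp1, which encodes a transcriptional co-repressor, a region 2743 bp beyond the gene end had 310, 347 and 346 and lay 923 bp from a mutant peak. Hhat, the enzyme that attaches palmitate to Hedgehog proteins, had 284, 295 and 294 at a region 26778 bp outside the gene and 125, 139 and 131 at its neighbour. Capn2, the large subunit of a calcium-dependent protease, had 353, 376 and 325, and Gja5, the gap junction protein connexin 40, had 196, 228 and 234. At Slc14a1, a urea transporter, the values were 230, 257 and 252. In each of these regions the 3 null libraries gave close values, which a ranking by the weakest null library favours. The rule itself left no mutant peak in them. Of the 12 strongest regions, those inside Cntn1, Apbb2, Itpr2 and Vps13d lay more than 50 kb from any gene end and were assigned to no gene.

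At gene ends, the strongest after Ccdc89 were at Stac2, Paqr7, Stt3b, Lrrc32, Uroc1, Il6ra, Ppp3r2, Nedd9 and Slc39a12. Paqr7, a membrane progestin receptor, had pile-ups of 200, 229 and 206 at a region 946 bp outside the gene, with a mutant peak 455 bp from it. Lrrc32, which encodes the surface anchor of latent TGF-beta known as GARP, had 119, 148 and 130 inside the gene. Il6ra, the interleukin 6 receptor, had 102, 122 and 117. Nedd9, a focal adhesion scaffold, had 75, 106 and 74 at the gene end and 2 further null-only regions within 50 kb. The widest null-only region, 2443 bp, lay 37161 bp from Tfap2c, which encodes the transcription factor AP-2 gamma. It had pile-ups of 60, 58 and 59, the nearest mutant peak was 44902 bp away, and Tfap2c had no region open in all 9 libraries.

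21 gene lists were counted, and none of these counts is a test. Over all genes, 4.95% of the assigned regions called in all 3 null libraries were null-only, and 10.3% of genes with a region had at least 1. A gene with many regions has more chances of at least 1, and the gene counts below were not adjusted for this. For extracellular matrix genes the share was 22 of 222 (9.91%), and 15 of 31 genes had at least 1. Among them, Dcn, the small proteoglycan decorin, and Col6a1, a chain of collagen VI, had 3 each. The Dcn regions had pile-ups of 31 to 58 and the Col6a1 regions 14 to 41. For osteoblast lineage genes it was 11 of 123 (8.94%) at 7 of 22 genes. Runx2 had 3, and the strongest had pile-ups of 107, 131 and 107, on a background 9.44 times the usual one and at a percentile of 19. Sparc, which encodes osteonectin, had 158, 166 and 153 at its region, 4734 bp from the gene, and Spp1, which encodes osteopontin, had 42, 59 and 47 at a region 47537 bp away.

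The highest share, 15 of 119 (12.6%), was that of peptide and amine receptors, where 6 of the 15 were those of Vipr2 and 6 of 31 genes had any. Lpar1, a receptor for lysophosphatidic acid, had 3, the strongest with 164, 193 and 167. Axon guidance and cell adhesion genes had 13 of 147 (8.84%) at 8 of 33 genes. Slit3, a secreted guidance ligand, had 3, the strongest with 192, 198 and 228, and Robo1, a Slit receptor, had 2. Cytokines and chemokines had 8 of 105 (7.62%), with Cxcl1, a neutrophil chemokine, at 128, 136 and 126. The shares of the other pathway lists were Wnt (6.3%), limb and skeletal patterning factors (6.36%), receptor tyrosine kinases and ligands (6.47%), Notch and Hedgehog (6.67%), osteosarcoma suppressors and oncogenes (4.67%) and BMP and TGF-beta (3.45%).

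p53 target genes had 3 of 93 (3.23%) at 3 of 30 genes, or 10%, against 10.3% of all genes with a region. The 3 were Gadd45a, Plk3 and Trp53inp1. Their pile-ups were 25, 26 and 23 at Gadd45a, a DNA damage response gene, 85, 116 and 97 at Plk3, a polo-like kinase, and 37, 41 and 47 at Trp53inp1, a stress protein. The Plk3 region stood on a background 7.67 times the usual one. In the weakest null library its percentile was 11.6, against 11.9 at Gadd45a and 34.2 at Trp53inp1. The Gadd45a and Trp53inp1 regions lay 43662 and 26694 bp from those genes. A null-only region lay 38985 bp from Cdkn2a, which encodes p16 and p19ARF, with 70, 71 and 73. Hox genes had 0 of 50 and smooth muscle and pericyte genes 0 of 49. Upper limits of 6% and 6.12%, taken as 3 over the number of regions, lie above the share over all genes. They cover counting error only and treat regions of 1 line as independent, which was not tested. Markers of other cell types had few: chondrocyte genes 1 of 45 (2.22%), adipocyte genes 2 of 41 (4.88%), skeletal muscle genes 3 of 40 (7.5%), endothelial genes 2 of 44 (4.55%), neuronal and glial genes 4 of 56 (7.14%), epithelial genes 2 of 47 (4.26%) and macrophage and leukocyte genes 1 of 25 (4%). The chondrocyte region was at Sox9, the cartilage master regulator, with 82, 78 and 94.

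**Figure D3:**
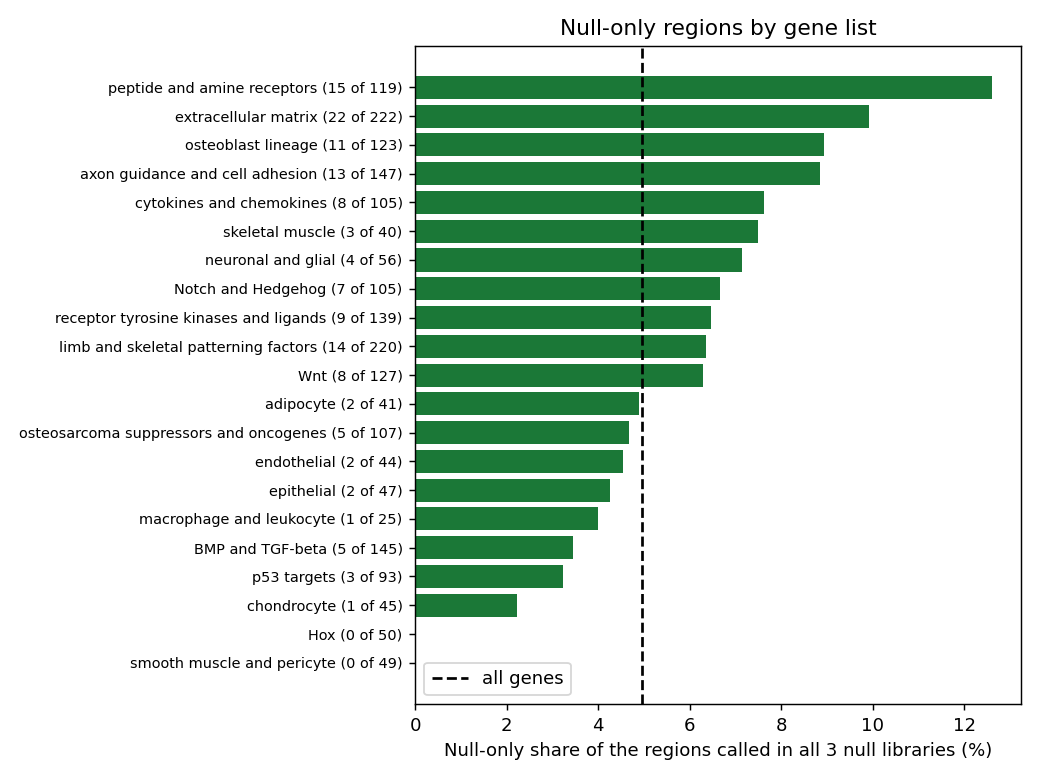
Null-only share of the regions assigned to each gene list and called in all 3 null libraries (x, %), with the counts beside each name. The dashed line is the share over all genes, 4.95%. Peptide and amine receptors, extracellular matrix and osteoblast lineage genes have the longest bars, and Hox and smooth muscle genes have none.

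The null-only regions were not spread evenly. As a share of the regions that all 3 null libraries called, they made up 11.5% on chromosome 18 (223 regions), 10.2% on chromosome 12 (223) and 10.1% on chromosome 7 (352), against 3% on chromosome 19 (48) and 3.35% on the X chromosome (31). The signal at regions open in all 9 libraries, which the rule did not choose, differed along the genome as well. After centring each library on its median, the log2 pile-up in the null libraries minus that in the mutant libraries had a median of 0.376 on chromosome 18, 0.188 on chromosome 12 and 0.11 on chromosome 7, and −0.413 on chromosome 19. Against the R172H libraries alone these medians were 0.04, −0.026, −0.117 and −0.664, in the same order. Against the R245W libraries alone they were 0.669, 0.346, 0.344 and −0.191. On chromosomes 18, 12 and 7 the null line thus stood above R245W, but close to R172H or below it. More DNA copies and more open chromatin per copy cannot be told apart in peak lists. Chromosome 4, at 0.24 against all mutant libraries, 0.226 against R172H and 0.219 against R245W, had an ordinary share of null-only regions, 6.59%.

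**Figure D4:**
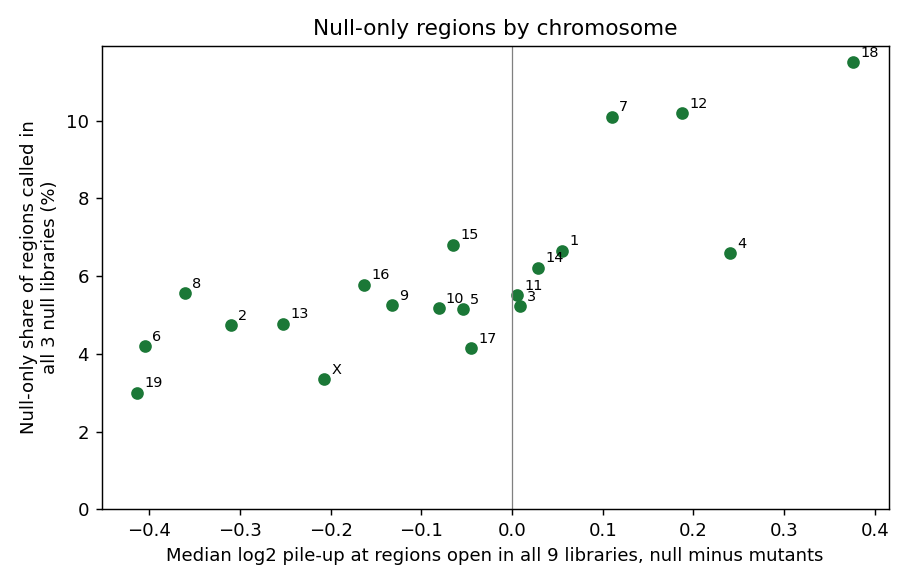
Null-only share of the regions called in all 3 null libraries (y, %) against the median log2 pile-up difference, null minus mutants, at regions open in all 9 libraries (x). Each point is a chromosome. Chromosomes 7, 12 and 18 have shares above 10% and stand right of 0, while chromosomes 6 and 19 stand furthest left with 4.2% and 3%.

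The same held on a finer scale. Around each region called in all 3 null libraries, the median log2 difference at regions open in all 9 within 500 kb was taken as the local signal. Where it was below −0.5, 3.27% of those regions were null-only, and from −0.5 to 0 the share was 4.17%. It was 6.88% from 0 to 0.5, 15.1% from 0.5 to 1 and 33.1% above 1. Of the null-only regions, 2726 (80.1%) lay where the local difference was 0.5 or lower, against 92.4% of all regions called in 3 null libraries. Another 154 (4.53%) lay where it was above 1, against 0.826%, and 121 of these were on chromosome 7. Another 247 had under 5 regions open in all 9 around them, so no local value was set.

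Of the 352 on chromosome 7, 131 lay in a block between 65 and 75 Mb, picked after its values were seen. There 131 of 394 regions called in all 3 null libraries were null-only (33.2%), against 221 of 3086 (7.16%) on the rest of that chromosome. At the 134 regions of the block open in all 9 libraries, the centred log2 pile-up was 0.772, 0.749 and 0.735 in the null libraries, −0.319, −0.346 and −0.261 in the R172H libraries, and −0.687, −0.629 and −0.654 in the R245W libraries. The null libraries stood above every mutant library, with a median difference of 1.11. Between 72 and 73 Mb, 36 of 61 were null-only and the difference was 2.37, from 8 regions. St8sia2, Mctp2 and Chd2, a chromatin remodeller with pile-ups of 308, 315 and 268 at its strongest region, all lie in this block. As elsewhere, the part of DNA copies in these calls cannot be told apart from openness. Without the block, 5.85% of the regions called in all 3 null libraries were null-only, in place of 6.05%.

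Close to null-only regions, shared elements also carried more signal in the null line. At 8054 regions open in all 9 libraries within 50 kb of a null-only region, the centred log2 pile-up was 0.257, 0.244 and 0.252 in the null libraries, against −0.027 to −0.025 in the R172H libraries and −0.021 to −0.019 in the R245W libraries. The mean difference was 0.275, and it was 0.26 without the chromosome 7 block. It is given without a test because the contrast is the one that chose the regions. In the null libraries the mean was 0.3 within 5 kb, 0.314 from 5 to 20 kb, 0.185 from 20 to 50 kb, 0.004 from 50 to 200 kb and −0.15 beyond. In the R172H libraries the means were 0.013, −0.072, −0.014, −0.036 and 0.047, and in the R245W libraries 0.05, 0.025, −0.062, −0.048 and 0.037. Shared elements within 50 kb of regions open in 1 mutant line alone showed a smaller rise in that line. There were 17229 of them beside R172H-only and 12021 beside R245W-only regions, against 8054 beside null-only regions. Signal is centred on the median of all 36473 regions open in all 9, and a larger set lies closer to that median. The sizes of the rises are therefore not like for like. Beside R172H-only regions, the R172H libraries had 0 to 0.012. The null libraries had −0.079 to −0.063 there and the R245W libraries −0.077 to −0.065. Beside R245W-only regions, the R245W libraries had 0.046 to 0.052. The R172H libraries had −0.055 to −0.025 there and the null libraries −0.079 to −0.063.

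**Figure D5:**
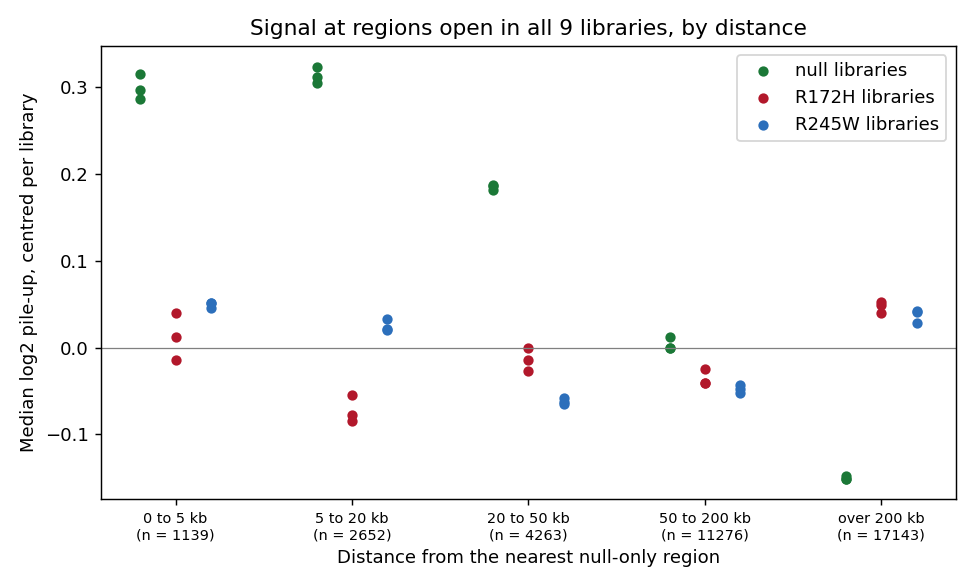
Median log2 pile-up, centred per library (y), at regions open in all 9 libraries, grouped by distance from the nearest null-only region (x, with the number of regions). Each point is a library. The 3 null libraries stand highest in each bin up to 200 kb and lowest beyond 200 kb.

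At 1386 gene end regions open in all 9 libraries of genes with a null-only region, the centred log2 pile-up was 1.176, 1.132 and 1.137 in the null libraries, 1.278, 1.271 and 1.303 in the R172H libraries, and 0.918, 0.908 and 0.937 in the R245W libraries. At 10302 such regions of other genes it was 1.069, 1.015 and 1.038 in the null libraries, 1.338, 1.329 and 1.349 in the R172H libraries, and 0.962, 0.967 and 1 in the R245W libraries. In both sets the null libraries lay between those of the mutant lines. The 3 null libraries were higher at genes with a null-only region than at other genes, while all 6 mutant libraries were lower there. This too carries no test, because the genes were sorted by calls that make the same contrast.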

How the data were processed

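ATAC-seq of 9 libraries, 3 per line, was analysed from the deposited peak lists, 1 per library, so replicates were not pooled. Per the submitters' processing notes, the tools named are MACS2 2.1.0, deepTools, Bowtie 1.1.2, Trimmomatic 0.33 and bcl2fastq 2.17, and the build is GRCm38. How reads were filtered, or shifted for the Tn5 cut, is not given in the sources used here, and either could move a peak's edges slightly. In the deposited lists a peak carries its score, the fold ratio of its summit over local background, a −log10 p-value and a −log10 q-value there, which are the authors' own values. The lowest deposited −log10 q was 1.3.

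Given a whole pile-up and its Poisson background, MACS2's fold and p are fixed, so both were solved for every peak, and 100% came within 0.002 of the deposited −log10 p. Tested on simulated data, 5000 of 5000 pile-ups and 200 of 200 implanted null-only regions were recovered. Pile-ups at regions open in all 9 libraries were put on the log2 scale and centred on each library's median. Genes and promoter windows came from RefSeq on GRCm38.p6. Promoters on chromosome 18 were not analysed here. The members and lists were chosen with earlier results of these data known.

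No test was made, because the calls that define the regions are the contrast itself. Named genes were, of the assigned genes with proper names, the 12 with the most null-only regions (ties to the stronger), those of the 10 strongest, the 10 strongest gene ends, the 3 widest and 3 longest runs, and up to 4 per list. Some items so named are not reported here. Alternatives were stricter q, equal list lengths, other merging, summit windows, looser call rules, autosomes only, other distances and each library left out. Computations ran in Python 3.11.15 with scipy 1.17.1, pandas 2.3.3 and numpy 2.4.6, and plots were drawn with matplotlib 3.10.9.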

Additional observations from a re-analysis of the deposited data

How the results depend on the processing

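The number of null-only regions, 3402, stayed within 1.5 times under all alternatives run, from 2856 with a −log10 q of 5 or more asked of the null peaks alone to 5067 with 2 or 3 of 3 null libraries. Equal list lengths gave 5000, and leaving out a library gave 3479 to 4041. The share at a gene end, 3.56%, was outside its interval with equal list lengths (4.36%), summit windows (4.49%) and gene end windows of 500 bp (2.41%) and 2000 bp (7.05%). Leaving out a library gave 3.48% to 3.71%. The call share in a null library kept out, 86%, was 88.4% with a −log10 q of 5 or more. In alternatives chosen after seeing the data, the signal difference beside null-only regions, 0.275, was 0.315 within 20 kb, 0.22 within 100 kb, 0.26 without the chromosome 7 block and 0.252 without chromosome 7, and 0.272 to 0.278 with a library left out. The cause of these moves was not tested. For the 12 genes with the most null-only regions, 238 of 252 counts over 21 settings stayed within 1.5 times. Those that did not include Pdzrn4, with 4 when regions were assigned within 20000 bp and 17 by the nearest span, and Mctp2, with 2 to 14. Within 20000 bp, Clmp had 1 in place of 5, Septin9 1 in place of 4, Vipr2 3 in place of 6, and Cntn1 and Nek7 2 each in place of 4. Septin9 had 2 when peaks within 500 bp were merged. The order of genes moved too: Vipr2 had 8 against 7 at Pdzrn4 with equal list lengths, and Mctp2 10 and St8sia2 8 against 7 with 2 or 3 of 3 null libraries. Mctp2 had 14 against 8 within 100 kb, and St8sia2 8 against 7 without null replicate 2.

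Of all null-only regions, 20.8% stood below a percentile of 10 in their weakest null library. Read depth is unknown, and an absent call in a mutant library does not show closed chromatin. No paired analysis was possible because no result comes from a test, and the replicate numbers of the lines share only a number.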

Other observations

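Outside chromosome 15, the longest runs of neighbouring null-only regions had 4 members, and there were 6 of them. The nearest genes were Rgma, a repulsive guidance protein of axons and a BMP co-receptor, at chr7:72995998-73022407, Mctp2 at chr7:72383215-72401964, Kctd15 at chr7:34546423-34571429, Mapk1ip1 at chr7:138622268-138734687 and Slc44a1, a choline transporter-like protein, at chr4:53478371-53513236. The local log2 difference was 2.175 at Rgma, 2.33 at Mctp2, 0.719 at Kctd15, 0.272 at Mapk1ip1 and 0.22 at Slc44a1. The sixth run, at chr3:6406596-6990590, was nearest to a gene known only by a clone name and had no local value. Of the null-only regions, 430 (12.6%) stood in 192 runs of 2 or more, and 2972 stood alone among regions of other kinds. These genes were chosen by run length after their values were seen.

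Of 1005 miRNA hairpins in RefSeq, 8 lay within 1000 bp of a null-only region. The same count for other regions is not given here, so 8 cannot be called many or few. The region beside Mir7000 had pile-ups of 92, 113 and 105 in the null libraries, and that beside Mir686 had 92, 104 and 103. The region beside Mir211, a miRNA known from melanocytes, had 40, 61 and 41. Beside Mir7210 the values were 29, 37 and 35. The other 4, beside Mir7037, Mir6923, Mir6939 and Mir6420, ran from 20 to 32, close to the weakest peaks called.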
